A study of Mus musculus with 8 samples.

Results

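Kinesins are motor proteins that walk along microtubules or take their ends apart. They were examined here in the established fibroblast line NIH3T3, from mouse embryos, after sorting into G1 and G0. The members were all probe sets whose platform annotation gave a single gene symbol of Kif and a digit, or Kifc and a digit. This rule gave 41 of the 18193 genes measured, on 104 of the 45037 probe sets that are not controls. A further probe set named for both Gm26555 and Kif27 was left out. By main role, 13 genes (26 probe sets) were classed as mitotic, 15 genes (54 probe sets) as cargo transport motors and 13 genes (24 probe sets) as having other roles. The classes were drawn up with earlier results of these data known. Kif2a and Kif2b, which share a name stem with the mitotic Kif2c and could be classed with it, were placed with the other roles. Kif19a and Kif25, which were on the list of other roles, had no probe set under the rule.

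All cells had been transduced with mVenus-p27K-, a reporter of the CDK inhibitor p27, and mCherry-hCdt1(30/120), a reporter present in G0 and G1 and lost from S phase on. They had been kept without serum and then in 10% fetal bovine serum for 5 h. Cells negative for mVenus and positive for mCherry were sorted as G1 and hybridised to 4 arrays, and cells positive for both were sorted as G0 and hybridised to 4 arrays. Each group is thus a sorted part of a transduced line, and no untreated or unsorted cells were among the samples. The labels do not say whether replicates are separate cultures, and p-values reflect just the spread among these arrays, which may be technical. In such sorted pools, fewer cells with an mRNA and less of it per cell cannot be told apart.

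Mitotic kinesins build the spindle, move chromosomes on it and close the division furrow, and in many cell types their mRNAs accumulate towards G2 and M phase. Transport kinesins carry vesicles, organelles and mRNAs along microtubules whether or not a cell divides. Many promoters of mitotic genes hold a CHR (cell cycle genes homology region), with the letters TTTGAA near the start of transcription, where the DREAM complex represses in quiescence and the MuvB complex with B-Myb and Foxm1 activates later. A CCAAT box, bound by NF-Y, often lies upstream of it.

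These letters were common near the starts of the mitotic kinesin genes. RefSeq promoter windows of 300 bases, 250 before and 50 after the annotated start (GRCm38.p6), were at hand for 12 of the 13 mitotic genes, each with 1 window. They were also at hand for 10 of the 15 transport genes (12 windows) and 11 of the 13 other genes (13 windows). TTTGAA, on either strand, occurred in 11 of the 12 mitotic windows. It occurred in 1 of the 12 transport windows, 2 of the 13 other windows and 17.9% of all 32851 windows. Within 30 bases of the start it was found in 9 of the 12 mitotic windows, 0 of the 12 transport windows, 1 of the 13 other windows (Kif26b) and 3.14% of all windows. The median GC content was 61.5% in the mitotic windows, 68.2% in the transport windows and 52.7% in all windows. Among the 21050 windows whose GC content lay within the mitotic range of 43.7% to 65.0%, 16.8% held the letters and 2.70% held them near the start. A match describes letters in a window and is not evidence of binding.

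The 30 bases around the match nearest to the start are shown for genes whose values are given below, each on the gene's own strand, with the matching letters in capitals. TTCAAA is TTTGAA read on the opposite strand.
Kif11 (chr19:37376351-37376380, + strand): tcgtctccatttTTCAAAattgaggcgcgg
Kif15 (chr9:122951050-122951079, + strand): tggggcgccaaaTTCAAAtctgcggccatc
Kif22 (chr7:127042420-127042449, - strand): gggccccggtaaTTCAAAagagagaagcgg
Kif4 (chrX:100626072-100626101, + strand): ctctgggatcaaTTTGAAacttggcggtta
Kif18b (chr11:102925104-102925133, - strand): cggaccggctagTTTGAAcgcgccgcgccg
Kif23 (chr9:61946780-61946809, - strand): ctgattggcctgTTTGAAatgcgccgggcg
Kif20b (chr19:34922353-34922382, + strand): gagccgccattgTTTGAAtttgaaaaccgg
Kifc1 (chr17:33890615-33890644, - strand): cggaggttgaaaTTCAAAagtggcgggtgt
Kifc5b (chr17:26917108-26917137, + strand): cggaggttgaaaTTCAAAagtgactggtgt
Kif2c (chr4:117178858-117178887, - strand): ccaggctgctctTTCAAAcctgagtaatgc
Kif14 (chr1:136467608-136467637, + strand): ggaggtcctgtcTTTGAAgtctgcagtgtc
Kif26b (chr1:178529104-178529133, + strand): tgggagaatttcTTTGAActcagttagcga
Kif1a (chr1:93082507-93082536, - strand): tttgacagcctcTTTGAAcattgctcctaa
The first base of the match lay at −19 in Kif11 and Kif15, −17 in Kif22, +20 in Kif4, +4 in Kif18b, +3 in Kif23, +8 in Kif20b, +2 in Kifc1 and +30 in Kifc5b, counting the annotated start as +1. In Kif2c it lay at −103, in Kif14 at −228 and in Kif26b, a gene of the other class, at −9. Kif20b held the letters at both +8 and +14. Kif1a, at −44, was the transport gene that held them. Kif18a was the mitotic gene without them.

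CCAAT, on either strand, occurred in 8 of the 12 mitotic windows, 4 of the 12 transport windows, 5 of the 13 other windows and 37.4% of all windows. The other 3 motifs searched were the CHR variant TTTAAA, found in 2 of the 12 mitotic windows and 13.2% of all windows, and 2 forms of an E2F site. GCGGGAA was in 0 of the 12 mitotic windows, 2 of the 13 other windows and 4.6% of all windows, and TTTGGCGC was in 2 of the 12 mitotic windows and 0.514% of all. The transport windows held 0 matches to these 3 motifs. Those 2 were Kif15, where this site ends directly before the CHR letters at −19, and Kif18a. The last 100 bases before the start show the layout in 2 mitotic genes that rose and 2 transport genes that did not pass the test, with CCAAT and TTTGAA (either strand) in capitals.
Kif11 (chr19:37376282-37376381, + strand): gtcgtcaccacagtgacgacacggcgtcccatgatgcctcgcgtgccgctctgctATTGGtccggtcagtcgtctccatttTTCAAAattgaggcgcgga
Kif22 (chr7:127042421-127042520, - strand): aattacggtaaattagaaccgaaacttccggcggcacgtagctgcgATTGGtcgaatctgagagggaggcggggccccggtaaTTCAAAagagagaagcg
Kif3a (chr11:53567269-53567368, + strand): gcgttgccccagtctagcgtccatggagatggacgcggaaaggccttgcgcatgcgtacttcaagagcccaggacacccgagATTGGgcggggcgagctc
Kif1c (chr11:70700448-70700547, + strand): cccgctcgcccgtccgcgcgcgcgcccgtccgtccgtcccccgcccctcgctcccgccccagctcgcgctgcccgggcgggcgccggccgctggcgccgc
Kif11 and Kif22 carry both boxes in this order, Kif3a carries the CCAAT box alone, and Kif1c carries neither.

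Values are log2 expression, the base taken as 2, relative to each probe set's own median over the 8 arrays. Differences between groups are therefore measured and absolute levels are not, so levels of different genes cannot be compared. Array medians lay between −0.07 and 0.09. The poly-A spike-in controls were near their median on 6 arrays (medians over 24 probe sets of −0.14 to 0.62) and far below it on G1 replicate 4 (−6.40) and G0 replicate 3 (−7.12). The labels instead put replicate 4 of both groups in a separate labelling batch (kit protocol revision 3 against revision 8). G1 replicate 4 and G0 replicate 3 were the 2 highest arrays in 0 of the 26 mitotic probe sets, 12 of the 54 transport probe sets (22.2%) and 15.9% of all probe sets. In 19 of the 26 mitotic probe sets every G1 array was above every G0 array, so there this count could not show a shared shift. By the median over mitotic probe sets, G1 replicate 4 was the highest G1 array (1.20) and G0 replicate 3 the highest G0 array (−0.75). Values without these 2 arrays are given below for the genes whose difference, on the probe set that stands for them, moved by more than 0.5. With centred values it cannot be read whether the markers of fibroblasts or of other cell types were expressed. Of 10 fibroblast and 18 other markers (neuron, epithelium, leukocyte and endothelium), 0 passed the test, where 0.522% of all genes did. Without adjustment, 3 had a limma p under 0.05: Col3a1 (log2 difference −0.72), Cd14 (−0.65) and Pecam1 (1.16). At that p 4.33% of all genes were higher and 3.74% lower, so these few markers cannot be told from genes at large. The median over the fibroblast markers ran from −0.22 to 0.08 on the G1 arrays and from −0.04 to 0.23 on the G0 arrays, and its part in the results was not tested.

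Cells sorted as G1 carried more mRNA of several mitotic kinesins than cells sorted as G0, and no transport kinesin passed the test. Of the 13 mitotic genes, 5 were higher in G1 at an adjusted p under 0.05 in limma, 0 were lower and 8 did not pass. The share called higher among all 18193 genes was 0.5%. Each gene stands here by 1 probe set chosen without regard to its values. Counting any probe set, 8 of the 13 genes were called higher, where 0.682% of all genes were. These 8 were Kif11, Kif22, Kif4, Kif2c, Kif18b, Kif23, Kif20a and Kif20b. Of the 15 transport genes and the 13 others 0 were called, on any probe set. The median log2 difference, G1 minus G0, was 1.52 over the mitotic genes, −0.11 over the transport genes and 0.26 over the others, beside −0.06 over all genes. All 4 G1 arrays lay above all 4 G0 arrays in 8 of the 13 mitotic genes, against 3.79% of all genes, and in 0 of the 15 transport genes.

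Over probe sets the contrast had the same direction. Of the 26 mitotic probe sets 12 were called higher (0.373% of all probe sets were), 21 had a limma p under 0.05 without adjustment and were higher (3.71% of all probe sets were), and 24 had a positive difference (45% of all had). In 19 of the 26 every G1 array was above every G0 array, as in 3.16% of all probe sets. Of the 54 transport probe sets 0 were called and 38 had a negative difference (55% of all probe sets had). Without adjustment, limma gave p under 0.05 for 4 of them, each lower (3.59% of all probe sets were), and in 4 every G1 array was below every G0 array, as in 2.9% of all probe sets. By genes, 9 mitotic genes were higher without adjustment (4.33% of all genes were), and 1 transport gene was lower (3.74% of all genes were). The median of the mitotic probe sets was 0.97, 0.58, 1.04 and 1.20 on the G1 arrays, against −0.95, −1.42, −0.75 and −1.10 on the G0 arrays. The median of the transport probe sets was −0.11, −0.14, −0.08 and 0.08 on the G1 arrays, against 0.24, 0.01, 0.05 and −0.01 on the G0 arrays. The mitotic groups were far apart, and the transport groups overlapped.

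**Figure D1:**
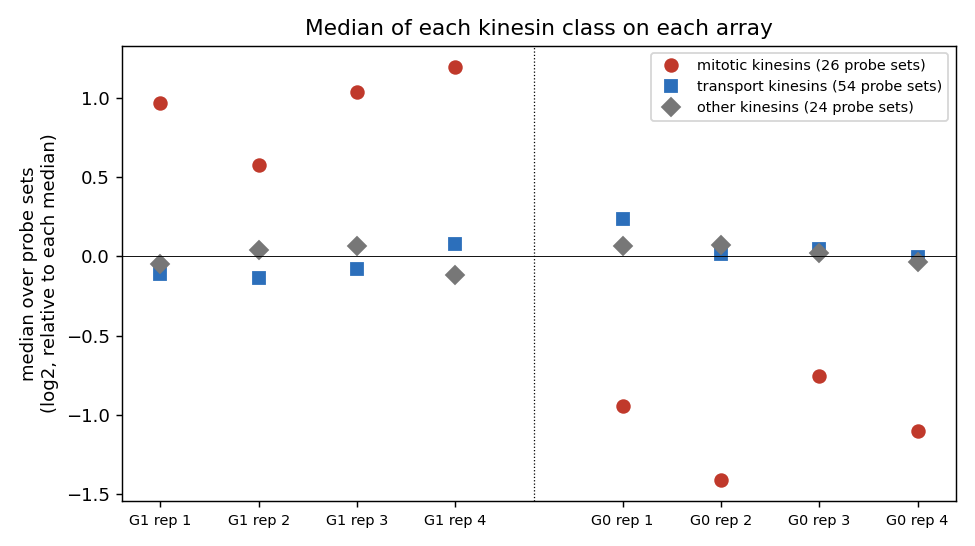
Median of each kinesin class on each array (log2, relative to each probe set's median), with the 4 G1 arrays on the left and the 4 G0 arrays on the right. The mitotic medians lie between 0.58 and 1.20 in G1 and between −1.42 and −0.75 in G0, while the medians of both other classes stay within 0.24 of 0.

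The calls rested on all 8 arrays, and the direction held in smaller sets of arrays. When the batch shown by the spike-ins replaced the labelled one, 5 mitotic genes (0.929% of all genes) and 13 mitotic probe sets (0.702% of all probe sets) were called. Using the 6 arrays with spike-in signal, 1 mitotic gene was called, Kif20a, against 0.165% of all genes. In fits without G1 replicate 1, 2, 3 or 4, or without G0 replicate 1, 2 or 4, 0 mitotic genes were called, and without G0 replicate 3 there were 3. Over all 18193 genes, 0 were called in 6 of these 8 fits, 28 were called higher (0.154%) without G0 replicate 1 and 67 (0.368%) without G0 replicate 3. In each of these 8 fits 18 to 20 of the 26 mitotic probe sets were still higher by limma's p before adjustment (under 0.05), and the median log2 difference of the mitotic genes lay between 1.34 and 1.86. For the mitotic genes the median difference was 1.78 in the first and 1.38 in the second labelled batch, and 1.41 in either spike-in batch. For the transport genes it was −0.13 and −0.24 by labelled batch, and −0.12 and −0.06 by spike-in batch. The labels and the spike-ins set different arrays apart, and the deviations of G1 replicate 4 correlated with those of G0 replicate 3 over all probe sets at 0.309 and with those of G0 replicate 4 at −0.136.

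**Figure D2:**
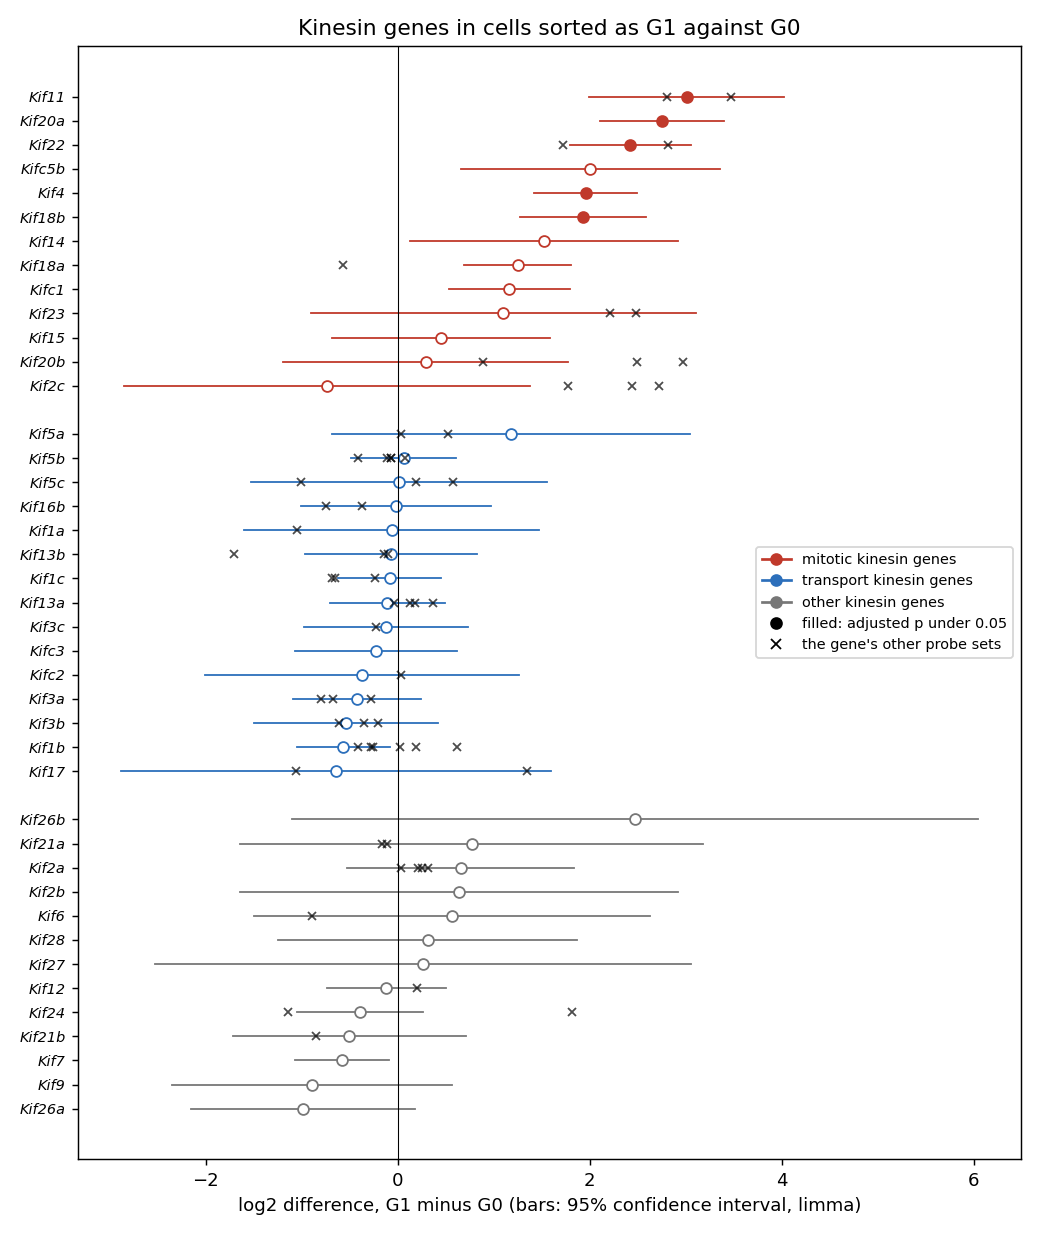
Log2 difference, G1 minus G0, of each kinesin gene on the probe set that stands for it (circles, filled at an adjusted p under 0.05), with its 95% confidence interval, and of its other probe sets (crosses). The 5 filled circles are Kif11, Kif20a, Kif22, Kif4 and Kif18b, and the crosses of Kif2c, Kif23 and Kif20b lie to the right of their circles.

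Of the motors that set up the spindle, Kif11 rose. Kif11 (Eg5) slides antiparallel microtubules apart and makes the spindle bipolar. On the probe set 1435306_a_at it had 1.88, 1.12, 1.27 and 2.35 in G1 cells, against −2.06, −2.01, −1.12 and −2.06 in G0 cells. All G1 arrays were above all G0 arrays, and G0 replicate 3 was the highest of the G0 arrays. Its mean was 1.66 ± 0.56 in G1 and −1.81 ± 0.46 in G0 (SD, n = 4 each), an 11.1-fold rise (log2 difference 3.47, SE 0.37, limma adjusted p = 0.017). The probe set that stands for the gene, 1452314_at, gave an 8.06-fold rise (log2 difference 3.01, SE 0.43, adjusted p = 0.047). By that value Kif11 ranked 26 among 18193 genes. The third probe set, 1452315_at, differed by 2.81 with an SD of 1.92 in G1 and 1.74 in G0 and did not pass (limma adjusted p = 0.614).

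Kif15, a spindle motor that can keep the poles apart beside Kif11, did not pass. It had −0.45, 0.26, −0.14 and 0.47 in G1 cells, against 0.44, −1.42, 0.14 and −0.80 in G0 cells. The groups overlapped, and the log2 difference was 0.45 with a 95% confidence interval of −0.69 to 1.58 (limma adjusted p = 0.926), which holds both no change and a change of the size seen for Kif18a.

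Kifc1 (HSET), a minus-end-directed motor that draws microtubule ends together at the poles, had 0.84, 0.42, 0.42 and 0.35 in G1 cells, against −0.35, −1.14, −0.73 and −0.40 in G0 cells. Its groups did not overlap, and the log2 difference of 1.16 (SE 0.27, limma adjusted p = 0.257) did not pass. Kifc5b, a close paralogue of Kifc1 in the mouse, had 1.59, 0.22, 2.03 and 1.08 in G1 cells, against −2.18, −0.36, −0.33 and −0.22 in G0 cells. It too was separated and did not pass (log2 difference 2.01, SE 0.58, limma adjusted p = 0.417). The promoter windows of this pair share a run of 68 identical bases, and the probe set of Kifc1 has the suffix _s_at, which marks probes that match several transcripts. The signals of the 2 genes are therefore uncertain as separate values.

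Among the motors that act on chromosomes, Kif22, Kif4, Kif2c and Kif18b rose. Kif22 (Kid), a chromokinesin that binds DNA and pushes chromosome arms away from the poles, was called on 2 of its 3 probe sets. On 1451128_s_at it had 1.76, 1.06, 1.41 and 1.53 in G1 cells, against −1.14, −1.83, −1.06 and −1.47 in G0 cells. This was a 7.02-fold rise (log2 difference 2.81, SE 0.27, limma adjusted p = 0.011), the lowest adjusted p of the 104 kinesin probe sets. The suffix _s_at carries the limit given for Kifc1, so this value may hold signal of other transcripts. The probe set 1423813_at gave 5.36-fold (log2 difference 2.42, SE 0.27, adjusted p = 0.020), and 1437716_x_at gave 3.29-fold without passing (1.72, SE 0.32, limma adjusted p = 0.122).

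Kif4, a chromokinesin that works with condensin on chromosome axes and with Prc1 on the central spindle, had 1.08, 0.73, 0.92 and 1.15 in G1 cells, against −0.73, −1.27, −0.78 and −1.15 in G0 cells. With SDs of 0.19 in G1 and 0.27 in G0 its groups were tight and well apart. It was 3.88-fold higher in G1 (log2 difference 1.96, SE 0.23, limma adjusted p = 0.022). Kif18b, which shortens astral microtubules together with Kif2c, had 1.01, 0.64, 0.62 and 1.25 in G1 cells, against −1.04, −1.17, −0.62 and −1.39 in G0 cells. It was 3.81-fold higher (log2 difference 1.93, SE 0.28, limma adjusted p = 0.048).

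Kif2c (MCAK), which depolymerises microtubules at centromeres and so releases faulty attachments, differed between its probe sets. On 1437611_x_at it had 1.16, 1.27, 1.49 and 1.03 in G1 cells, against −1.35, −2.15, −1.38 and −1.03 in G0 cells, a 6.58-fold rise (log2 difference 2.72, SE 0.30, limma adjusted p = 0.020). The suffix _x_at was ranked last when probe sets were chosen, and this value too may hold signal of other transcripts. On 1449060_at Kif2c rose 5.41-fold (2.44, SE 0.34, adjusted p = 0.042). On 1454221_a_at the difference was 1.77 (SE 0.72, limma adjusted p = 0.669). The probe set that stands for the gene by the fixed order, 1432392_at, had −3.21, −0.04, 0.45 and 0.04 in G1 cells, against 0.58, 0.91, −0.38 and −0.93 in G0 cells. There the groups overlapped and the sign was negative (log2 difference −0.73, SE 0.90, limma adjusted p = 0.940), with G1 replicate 1 far below the other G1 arrays. Without that array the difference was 0.17.

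Kif18a, a kinesin-8 that damps the swings of chromosomes at the metaphase plate, had 0.69, 0.38, 0.73 and 0.50 in G1 cells, against −0.38, −1.01, −0.44 and −0.87 in G0 cells on 1424107_at. These groups did not overlap, and the 2.38-fold difference did not pass over all probe sets (log2 difference 1.25, SE 0.24, limma adjusted p = 0.132). Its other probe set, 1457895_at, differed by −0.57 (SE 0.59) with overlapping groups. Its window lacked the CHR letters. They were held by mitotic genes that rose and by others that did not pass (Kif14, Kif15, Kifc1 and Kifc5b), and a link was not tested.

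All 4 motors of cytokinesis had positive differences, and 3 of them rose. Kif20a (MKLP2), which carries the chromosomal passenger complex from the chromosomes to the central spindle, had 1.62, 1.00, 1.50 and 2.17 in G1 cells, against −1.0, −1.43, −1.02 and −1.27 in G0 cells. Its mean was 1.57 ± 0.48 in G1 and −1.18 ± 0.21 in G0 (SD, n = 4 each), a 6.73-fold rise (log2 difference 2.75, SE 0.28, limma adjusted p = 0.013). It still passed when the 2 arrays without spike-in signal were left out (log2 difference 2.61, limma adjusted p = 0.043), as did the probe set 1435306_a_at of Kif11 (3.47, adjusted p = 0.043).

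Kif23 (MKLP1), the motor of centralspindlin, had 0.78, 0.75, 1.11 and 1.31 in G1 cells, against −1.64, −0.75, −0.97 and −1.52 in G0 cells on 1453748_a_at. It rose 4.62-fold there (log2 difference 2.21, SE 0.30, limma adjusted p = 0.040). On 1455990_at it rose 5.58-fold, at the edge of the threshold (2.48, SE 0.36, limma adjusted p = 0.0498). Its first probe set, 1450827_at, had 1.05, −0.44, 1.93 and 0.37 in G1 cells, against −1.93, −1.51, −0.37 and 2.32 in G0 cells, and the groups overlapped (log2 difference 1.10, SE 0.86). There G0 replicate 4 was the highest of all 8 arrays.

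Kif20b (MPP1), which acts late in the separation of daughter cells, had 1.46, 0.90, 1.19 and 1.32 in G1 cells, against −0.90, −1.91, −1.26 and −1.05 in G0 cells on 1439695_a_at, a 5.64-fold rise (log2 difference 2.50, SE 0.28, limma adjusted p = 0.021). Its other 3 probe sets had positive differences of 0.29, 0.89 and 2.97 and did not pass. The smallest belonged to 1419792_at, which stands for the gene and had −1.51, 0.41, 1.39 and −0.15 in G1 cells, against 0.50, 0.03, −0.03 and −1.53 in G0 cells, with full overlap. Kif14, which recruits citron kinase to the midbody, had −0.01, 1.26, 0.37 and 0.76 in G1 cells, against −2.58, −0.03, −1.12 and 0.01 in G0 cells. Its single probe set gave a difference of 1.52 (SE 0.59, limma adjusted p = 0.647), with G1 replicate 1 within the range of the G0 arrays.

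**Figure D3:**
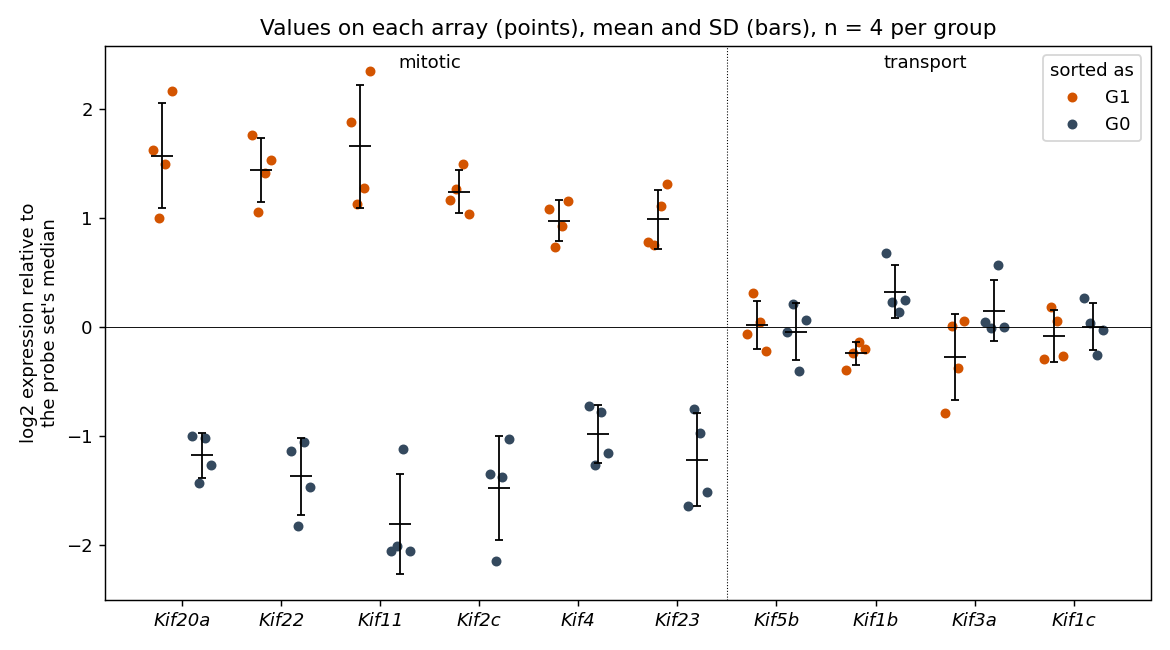
Log2 expression relative to the probe set's median on each array (points) for 6 mitotic and 4 transport kinesins, with mean and SD (bars, n = 4), G1 left of G0 within each gene. Mitotic genes are shown on their probe set of lowest p, a choice made from the values, and transport genes on the probe set that stands for them. Kif22 and Kif2c are thus shown on probe sets with the suffixes _s_at and _x_at, which may hold signal of other transcripts. In the 6 mitotic genes all G1 points lie above all G0 points, in Kif1b all G1 points lie below, and in Kif5b, Kif3a and Kif1c the groups overlap.

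Kinesin-1, the heavy chain of conventional kinesin, showed no change past the threshold. Kif5b, the form found in most tissues, had −0.07, 0.31, 0.05 and −0.22 in G1 cells, against −0.05, 0.21, −0.40 and 0.06 in G0 cells. The difference was 0.06 with a 95% confidence interval of −0.49 to 0.61 in limma, so a change of 2-fold in either direction lay outside it. The other 5 of its 6 probe sets differed by −0.42 to 0.07, and the interval of 1418428_at (−1.74 to 0.90) did hold a 2-fold change. Kif5a and Kif5c, known mainly from neurons, scattered too widely to read. Kif5a had −0.53, 1.60, −0.89 and 3.87 in G1 cells, against 0.58, −0.89, −0.89 and 0.53 in G0 cells. Its lowest value was shared by 3 arrays, and the difference of 1.18 (95% confidence interval −0.69 to 3.05) became −0.010 without the 2 arrays that lack spike-in signal. Kif5c had −0.84, 1.05, 0.54 and −0.68 in G1 cells, against 2.05, 0.10, −0.10 and −2.02 in G0 cells, a difference of 0.01 with an interval of −1.53 to 1.55.

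No kinesin-2 gene passed the test. Kif3a and Kif3b form a heterodimer that carries cargo along the cilium and in the cytoplasm. Kif3a had −0.79, 0.01, −0.38 and 0.05 in G1 cells, against 0.04, −0.02, 0.57 and −0.01 in G0 cells (log2 difference −0.43, limma adjusted p = 0.835). Its 4 probe sets were all negative, and on 1449841_at the G1 arrays lay below the G0 arrays (−0.67, SE 0.25, limma adjusted p = 0.619). Kif3b had −1.08, 0.31, −0.70 and 0.07 in G1 cells, against 0.67, −0.64, −0.07 and 0.80 in G0 cells (−0.54, limma adjusted p = 0.868), and its 4 probe sets were negative too. Kif3c had −0.30, 0.79, −0.04 and 0.03 in G1 cells, against −0.03, 0.97, −0.25 and 0.30 in G0 cells (−0.12, interval −0.98 to 0.73). Kif17, a motor of cilia and dendrites, had −1.10, −0.61, 0.66 and 0.38 in G1 cells, against 3.18, −1.28, −0.32 and 0.32 in G0 cells. Its difference of −0.64 rests on G0 replicate 1 and was 0.33 without it, and on 1419827_s_at it was 1.34 (limma adjusted p = 0.903).

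Among the kinesin-3 motors of vesicles, Kif1b came closest to the threshold. Kif1b, which carries mitochondria and synaptic vesicle precursors, had −0.39, −0.24, −0.14 and −0.20 in G1 cells, against 0.68, 0.22, 0.14 and 0.25 in G0 cells. Every G1 array was below every G0 array, as in 3.28% of all genes, and the difference of −0.57 (SE 0.21, limma unadjusted p = 0.029) did not pass (adjusted p = 0.619). The other 6 of its 7 probe sets ranged from −0.42 to 0.62. Kif1c, a Golgi and vesicle motor of many tissues, had −0.30, 0.18, 0.05 and −0.27 in G1 cells, against 0.26, 0.03, −0.26 and −0.03 in G0 cells, a difference of −0.08 (interval −0.62 to 0.45). On 2 of its other probe sets, 1424747_at and 1436224_at, the G1 arrays lay below the G0 arrays (differences of −0.69 and −0.65, limma adjusted p = 0.670 and 0.639).

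The remaining kinesin-3 genes overlapped between the groups. Kif1a, a neuronal motor of synaptic vesicle precursors, had −0.37, −0.27, 0.40 and −0.68 in G1 cells, against 0.27, −2.05, 0.81 and 0.30 in G0 cells (−0.06, interval −1.60 to 1.48). Kif13a, which carries recycling endosomes, had 0.48, −0.15, −0.49 and −0.01 in G1 cells, against 0.23, −0.05, 0.05 and 0.01 in G0 cells (−0.11, interval −0.71 to 0.50). Kif13b (GAKIN) had 0.40, −0.08, 0.08 and −0.77 in G1 cells, against 0.54, −0.33, −0.65 and 0.37 in G0 cells (−0.07, interval −0.97 to 0.82). These 3 differences were all close to 0, and on these probe sets those of Kif13a and Kif13b had intervals that left out a 2-fold change. Other probe sets had wider intervals, −1.22 to 1.95 for Kif13a (1447853_x_at) and −4.21 to 0.79 for Kif13b (1433159_at, difference −1.71). Kif16b, a motor of early endosomes, had 0.10, −0.52, −0.10 and 0.35 in G1 cells, against 0.52, −0.62, 0.75 and −0.76 in G0 cells (−0.02, interval −1.0 to 0.97).

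The transport motors of the kinesin-14 family also overlapped. Kifc2 had 0.29, −1.60, −2.14 and 1.33 in G1 cells, against −0.86, 0.23, 0.00 and 0.00 in G0 cells (−0.37, interval −2.01 to 1.26, and −0.94 without the 2 arrays that lack spike-in signal). Kifc3, which acts at cell junctions and the Golgi, had −0.20, 0.15, −0.06 and −0.88 in G1 cells, against 0.06, 0.36, −0.75 and 0.25 in G0 cells (−0.22, interval −1.07 to 0.62). In 5902 of all 18193 genes the 95% confidence interval lay within 1 log2 unit of 0. On the probe sets that stand for the 15 transport genes, it did so in 5. These were Kif5b, Kif1c, Kif13a, Kif13b and Kif3c, so the other 10 do not exclude a 2-fold change. Each of the 5 also had another probe set whose interval reached beyond 1 log2 unit. Examples are −1.34 to −0.03 for Kif1c (1424747_at) and −1.01 to 0.56 for Kif3c (1448946_at).

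The 13 kinesins of other roles gave 0 calls. At an unadjusted limma p under 0.05, 1 gene, Kif7, was lower (3.74% of all genes were) and 0 were higher (4.33%). Of their 24 probe sets 1 was higher at that p (3.71% of all probe sets were), 1457074_at of Kif24. In Kif7 and in Kif21b (1435772_at, −0.85), 2 were lower (3.59%). The differences of the genes ran from −0.98 to 2.47. The largest was that of Kif26b, at 0.12, 0.81, 0.21 and −0.12 in G1 cells, against −2.25, −4.63, 0.21 and −2.21 in G0 cells. It did not pass (log2 difference 2.47, SE 1.52, limma adjusted p = 0.821). The SD was 0.39 in G1 and 1.97 in G0, and the groups overlapped through G0 replicate 3. Without the 2 arrays that lack spike-in signal the difference was 3.40 (limma adjusted p = 0.598). The same omission gave 1.63 for Kif6, against 0.56 on 8 arrays, and 1.22 for Kif2b, against 0.64 on 8 arrays, and neither passed. Kif24, which restrains cilium growth at the mother centriole, gave differences of −0.39, −1.14 and 1.82 on its 3 probe sets. The second of these, 1453947_at, had −0.04, −0.98, 0.16 and −2.90 in G1 cells, against 0.82, −0.20, 0.04 and 0.15 in G0 cells, and the groups overlapped. The third, 1457074_at, had 1.21, 0.28, 0.59 and 0.47 in G1 cells, against −0.64, −2.39, −1.44 and −0.28 in G0 cells. Every G1 array was above every G0 array there, as in 3.16% of all probe sets. It did not pass (SE 0.50, limma unadjusted p = 0.0080, adjusted p = 0.391). Kif7, a regulator of Hedgehog signalling at the tip of the cilium, had a mean of −0.24 ± 0.12 in G1 and 0.34 ± 0.24 in G0 (SD, n = 4 each). Every G1 array was below every G0 array, as in 3.28% of all genes (−0.58, SE 0.21, limma adjusted p = 0.611). Kif2a, a depolymerase related to Kif2c that also acts outside mitosis, differed by 0.03 to 0.66 on its 5 probe sets.

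Genes of proteins that work with these motors were counted in 3 lists. Of 14 partners of mitotic motors 8 were called higher (0.5% of all genes were) and 0 lower, and 13 had every G1 array above every G0 array (3.79% of all genes had), with a median log2 difference of 2.41. The 8 were Cenpe, itself a kinesin of the kinetochore under another name (2.42, limma adjusted p = 0.020), Prc1 (3.05, adjusted p = 0.0089), Plk1 (2.80, 0.0089), Aurka (1.98, 0.028) and the 4 subunits of the chromosomal passenger complex, Aurkb (3.50, 0.0100), Birc5 (3.47, 0.0089), Incenp (2.27, 0.016) and Cdca8 (2.50, 0.011). Racgap1, the partner of Kif23 in centralspindlin, differed by 2.18 and did not pass (limma adjusted p = 0.072). Tpx2, which targets Kif15 and Aurka to the spindle, differed by 1.55 (limma adjusted p = 0.111). Numa1, a pole protein, differed by 0.06. Of 12 measured kinesin light chains and transport adaptors 0 were called and 1 was lower at an unadjusted limma p under 0.05 (3.74% of all genes were), with a median of −0.14. This was the adaptor Mapk8ip3 (JIP3) at −1.63 (limma adjusted p = 0.459). Of 21 measured subunits and regulators of dynein and dynactin, the motor that runs towards minus ends, 0 were called and 1, Dctn6, was lower at an unadjusted limma p under 0.05, against the same 3.74% of all genes. Their median was −0.13, and the 95% confidence interval lay within 1 log2 unit of 0 in 16 of the 21. It did so in 5902 of all 18193 genes.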

How the data were processed

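RNA of 8 samples was measured on Affymetrix mouse arrays. Deposited values are on a log2 scale, and the submitters' processing notes name MAS5. The authors' values were centred on each probe set's median before deposit, as the values show. The base of the logarithm is not stated, and 2 was taken from the range. With array data the number of arrays limits the precision. Left out were 64 control probe sets. Of the other probe sets 34945 had 1 gene symbol, 932 several and 9160 none, and 34741 symbols were updated through Entrez (GRCm38.p6 gene table, names only).

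G1 minus G0 was tested over all 45037 probe sets with limma 3.58.1 in R 4.3.3 (lmFit, eBayes with trend), two-sided, with the labelled batch as covariate, 5 residual degrees of freedom and Benjamini-Hochberg adjustment (threshold 0.05). The trend used means of centred values, not levels. A gene stood by 1 probe set (suffix order _at, _a_at, _s_at, _x_at, then lowest number), and all probe sets were also counted. No filter on level was possible. The fit was tested on simulated data. All members are accounted for, with values on every array for mitotic and transport genes and, in the other class, values for genes called or with an absolute difference of at least 1. Probe sets beyond this were named after their values were seen. Members, classes, motifs and lists were chosen with earlier results of these data known. Promoter sequences are from RefSeq. Alternatives to the scaling, the batch, the trend, the probe sets and the arrays used were also run.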

Additional observations from a re-analysis of the deposited data

Results flagged for a closer look

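In 208 groups of 4 arrays (104 probe sets in 2 groups), 19 (9.13%) had 1 array far from the other 3 by Dixon's criterion, which chance exceeds in about 5% of groups. They were 7 of 52 groups of mitotic probe sets (13.5%), 7 of 108 of transport probe sets (6.48%) and 5 of 48 of other probe sets (10.4%). The 5% is for normally distributed values, and the share over all probe sets of the arrays was not counted. These counts therefore do not show whether kinesin probe sets differ from the rest.

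On G1 replicate 4, which lacked spike-in signal, Kif11 (1452315_at) read 4.12, Kif20b (1440924_at) 2.61, Kif2c (1454221_a_at) 3.02, Kif5c (1455266_at) 1.82 and Kif13a (1439532_s_at) 1.15, all above the other G1 arrays. On the same array Kif2b (1429333_at) read −2.46 and Kif21b (1435772_at) −2.02, both below the others. On G0 replicate 3, which also lacked it, Kif11 (1435306_a_at) read −1.12, Kif3a (1420375_at) 0.57 and Kif6 (1441377_at) 2.50, above the other G0 arrays.

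On G1 replicate 1, Kif2c (1432392_at) read −3.21, Kif1c (1426325_at) −1.15 and Kif2a (1432072_at) −0.47, below the other G1 arrays, and Kifc1 (1449877_s_at) read 0.84, above them. Kif13b read −1.57 on G1 replicate 2 (1453276_at) and −1.04 on G1 replicate 3 (1436056_at). Among the G0 arrays, Kifc5b (1456136_at) read −2.18 and Kif5a (1450249_s_at) −2.26 on replicate 1, and Kif12 (1424910_at) read 0.83 on replicate 2. The part of these arrays in the results was not tested beyond the fits that leave them out.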

How the results depend on the processing

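The count of mitotic genes called was 5, and it was 0 with the replicate block (0 of all 18193 genes were called), 1 on the 6 arrays with spike-ins (0.165% of all genes called higher) and 3 without the eBayes trend (0.39%). The deviations of same-numbered samples correlated at 0.069, 0.106, −0.139 and −0.136. For replicates 1 and 2 these were the highest values of either array, and for replicates 3 and 4 they were not. G1 replicate 4 was closest to G0 replicate 3 (0.309, the highest of the 16), and G1 replicate 3 to G0 replicate 4 (0.100). Whether the labels of G0 replicates 3 and 4 are exchanged was not tested, and the block followed the labels. With the block 19 of 26 mitotic probe sets were higher at an unadjusted p under 0.05 in limma. The count of kinesin probe sets called was 12, and 0, 2 and 7 under the same settings. Leaving out 1 array gave 0 to 3 mitotic genes, 0 to 7 probe sets, a mitotic median of 1.34 to 1.86 and a median of the other class of −0.21 to 0.34. Averaging each gene's probe sets gave a mitotic median of 1.93 and 4 genes called. The spike-in batch, no batch term, robust fit, both array scalings, array weights and leaving out tied probe sets gave 5 mitotic genes each. Transport and other genes called were 0 in all 20 fits. The cause of these shifts was not tested. The 6-array and leave-out fits had fewer arrays, and the block fit had fewer residual degrees of freedom.

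Signs changed in genes not called on the probe set that stands for them. On the 6 arrays Kif16b was 0.11, Kif1a 0.42 and Kif5a −0.010. Kif16b was 0.0079 with array medians at 0 and 0.051 with quantile normalization. With array weights Kif1a was 0.22 and Kif5c −0.31. Averaging probe sets, Kif2c was 1.55, Kif12 0.042, Kif13a 0.11, Kif24 0.094, Kif5b −0.089, Kif5c −0.060 and Kif6 −0.17. Leaving out 1 array, the ranges were −0.23 to 0.065 (Kif12), −0.29 to 0.051 (Kif13a), −0.32 to 0.28 (Kif13b), −0.39 to 0.24 (Kif16b), −1.24 to 0.33 (Kif17), −0.72 to 0.29 (Kif1a), −0.19 to 0.0044 (Kif1c), −0.10 to 0.92 (Kif20b), −0.69 to 0.94 (Kif27), −0.36 to 0.79 (Kif28), −1.30 to 0.17 (Kif2c), −0.36 to 0.13 (Kif3c), −0.074 to 0.18 (Kif5b), −0.43 to 0.57 (Kif5c), −0.95 to 0.076 (Kifc2) and −0.50 to 0.080 (Kifc3).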
